A study of Arabidopsis thaliana with 6 samples.

Results

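The WRKY genes of Arabidopsis thaliana were followed through roots exposed to ionic aluminium, to aluminium oxide nanoparticles, or to neither. The family was taken as a fixed set of 60 named loci, chosen by name and not by their level, but with earlier results of these data known. Other WRKY genes are not analysed here. Of the 60 loci, 58 were among the 24438 genes with a value, and 2 (WRKY10 and WRKY12) had no row and count as not detected. A further 3 were present only at trace level, which left 55 members that could be tested. The study set the molecular response to the nanoparticle against the response to the dissolved ion.

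All plants were wild type of the Columbia ecotype at the vegetative stage, and root RNA was sequenced in 6 libraries. The ion group was treated with ion Al (2 libraries), the nanoparticle group with nAl2O3 (2 libraries), and the control group is labelled only as control (2 libraries). The second nanoparticle library carries the name nAl2O4 in its treatment label, and its title places it in the nanoparticle group. Dose, duration, age in days and plants per library are not given in the labels, and nothing there says that libraries came from separate plants, so the p-values rest on differences among these libraries that may be only technical.

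WRKY proteins are plant transcription factors named after a short run of amino acids in their DNA-binding domain, which is followed by a zinc finger. They bind the W box, a promoter element with the core TTGAC that many WRKY genes also carry in their own promoters, so members can act on one another. The family is divided by the number of domains and the form of the zinc finger into group I, subgroups IIa to IIe and group III. Many members act in immunity, where they lie downstream of mitogen-activated protein kinases and of the hormone salicylate, and others act in phosphate supply, senescence, heat tolerance and the patterning of root hairs.

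The coding sequence of the DNA-contacting heptad is shown first for 4 of the salicylate-linked members. WRKY50 and WRKY51 are shown because they differ from the rest of the family at that site, and WRKY62 and WRKY38, the 2 members with the largest rises below, as examples of the usual form. The standard heptad reads tryptophan, arginine, lysine, tyrosine, glycine, glutamine, lysine. In the RefSeq annotation of TAIR10.1, 58 of the 60 members had this standard heptad, and 2 (WRKY50 and WRKY51) had a lysine codon in place of the glutamine codon at the sixth position. The sequences are from chromosome 5 of the TAIR10.1 genome, written 5′ to 3′ on the coding strand, and the capitals mark the sixth codon of the heptad.
WRKY62, chr5:351565-351585, minus strand: tggaggaaatacggaCAAaag
WRKY38, chr5:7496202-7496222, minus strand: tggaggaaatatggtCAAaag
WRKY51, chr5:25908864-25908884, plus strand: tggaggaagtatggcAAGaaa
WRKY50, chr5:9147579-9147599, minus strand: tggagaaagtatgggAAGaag

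In the same annotation 11 of the 12 members of group I had 2 heptads and the other, WRKY10, had 1. All 9 members of group III had the zinc finger in which the last histidine is replaced by cysteine, and no member outside group III had it. Proteins of group III were 263 to 346 residues long, and those of group I were 309 to 687 residues long.

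The libraries held 12318429 to 14489392 reads, recovered from the steps of the deposited RPKM values (reads scaled by gene length and library total), so 3 reads in a 1-kilobase gene correspond to 0.207 to 0.244 RPKM. Over all genes tested, the first principal component (70.9% of variance) set ion roots apart from the other 4 libraries, and the second (19.4%) set control replicate 2 apart. The SD between libraries of a group was 0.297 in ion, 0.190 in nanoparticle and 0.448 in control roots on the log2 scale. Of 8 root markers, all 8 were above 0 in every library, with summed levels of 257 and 236 RPKM in ion roots, 448 and 482 RPKM in nanoparticle roots, and 377 and 182 RPKM in control roots. The 7 shoot markers summed to 36.5 and 32.8 RPKM in ion roots, 77.5 and 173 RPKM in nanoparticle roots, and 136 and 138 RPKM in control roots. LHCB1.1, a light-harvesting protein, was at 0 in nanoparticle replicate 1 and was the only shoot marker at 0 in any library. In ion against control roots 5 of 7 shoot markers fell (71.4%, against 10.3% of all genes called lower). Of the 8 root markers 2 fell with no rise (25%, against 22.6% of all genes called either way and 10.3% called lower). In ion against nanoparticle roots 3 of 7 shoot markers fell (42.9%, against 11.9% of all genes called lower). There 3 root markers fell and 1 rose (50% called, against 25.3% of all genes). The root markers GL2 and PHT1;1 are also on the list of bound or regulated genes below, so their calls are counted in both lists. The part of these differences in the results below was not tested.

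The summed level of the 58 detected WRKY genes was 1376 and 1363 RPKM in ion roots, 1448 and 1484 RPKM in nanoparticle roots, and 1401 and 1204 RPKM in control roots. The most abundant member differed between the groups. In ion roots WRKY51 was the top member with 9.84% and 9.68% of the sum, whereas WRKY65 was the top member in nanoparticle roots (21.5% and 21.4%) and in control roots (19.1% and 13.7%). By mean level WRKY62 had rank 2 among the 58 in ion roots and rank 51 in control roots, and WRKY51 had rank 1 in ion roots and rank 21 in control roots. The top of the control order, WRKY65, WRKY17, WRKY39, WRKY33 and WRKY11, had ranks 4, 3, 5, 8 and 7 in ion roots.

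**Figure D1:**
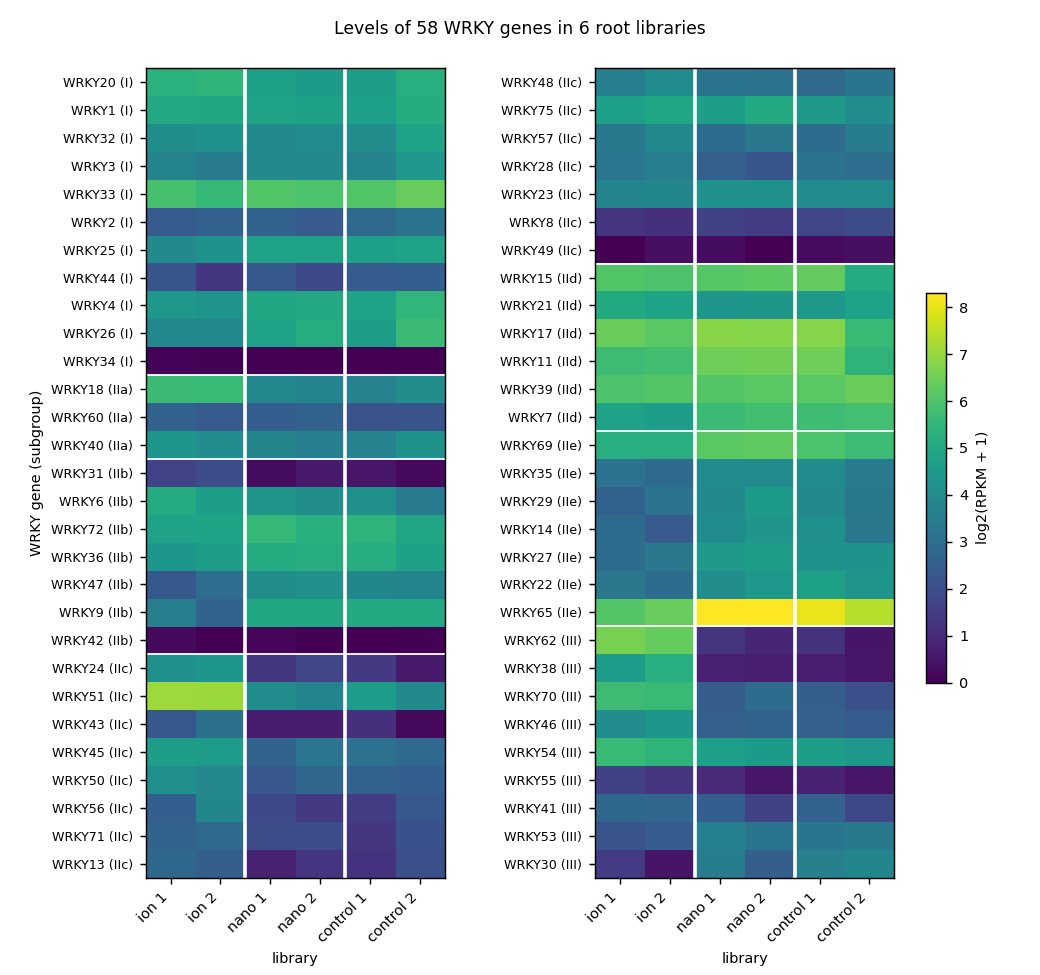
Level of the 58 detected WRKY genes, log2(RPKM + 1) as colour, in each of the 6 libraries (columns; ion, nanoparticle, control), with rows ordered by subgroup and by change. WRKY51 and WRKY62 are bright in both ion libraries and darker in the other 4, and WRKY65 is brightest in the nanoparticle and control libraries.

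In ion against control roots 14 of the 55 tested members rose and 11 fell, and the other 30 missed the threshold (limma adjusted p under 0.05 over 19648 genes). The 25 that passed are 45.5% of the members, against 22.6% of all genes tested, of which 12.3% were called higher and 10.3% lower. A log2 fold change of at least 1 either way was reached by 22 of the 25, and 16.4% of all genes met that rule. The median absolute log2 fold change was 0.79 over the members and 0.43 over all genes tested. The signed median was 0.10 over the members and 0.06 over all genes tested, and the all-gene median moved to -0.00064 with median-of-ratios scaling and to -0.04 with each library scaled to the same RPKM sum (TPM), so folds are read against that shift. Both ion libraries lay above the other 4 for 21 members (38.2%, against 30.5% of all genes), lay below them for 22 (40%, against 22.5%) and overlapped with them for 12. In whole roots, fewer cells of a type and less RNA per cell cannot be told apart.

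Calls in ion against control roots were counted by subgroup, beside 22.6% of all genes called. Subgroup IIc had 6 rises and no fall among 14 tested (42.9%, median log2 fold change 1.03), and group III had 5 rises and 2 falls among 9 (77.8%, median 0.96). Subgroup IIa had 1 rise among 3 (33.3%, median 0.36), and subgroup IIb had 2 rises and 2 falls among 6 (66.7%, median -0.41). Group I had no rise and 2 falls among 10 (20%, median -0.53), and subgroup IId had 1 fall among 6 (16.7%, median -0.05). Subgroup IIe had no rise and 4 falls among 7 (57.1%, median -1.09). The shares of group I and subgroup IId lay below that of all genes. These counts describe the subgroups, and differences between subgroups were not tested.

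**Figure D2:**
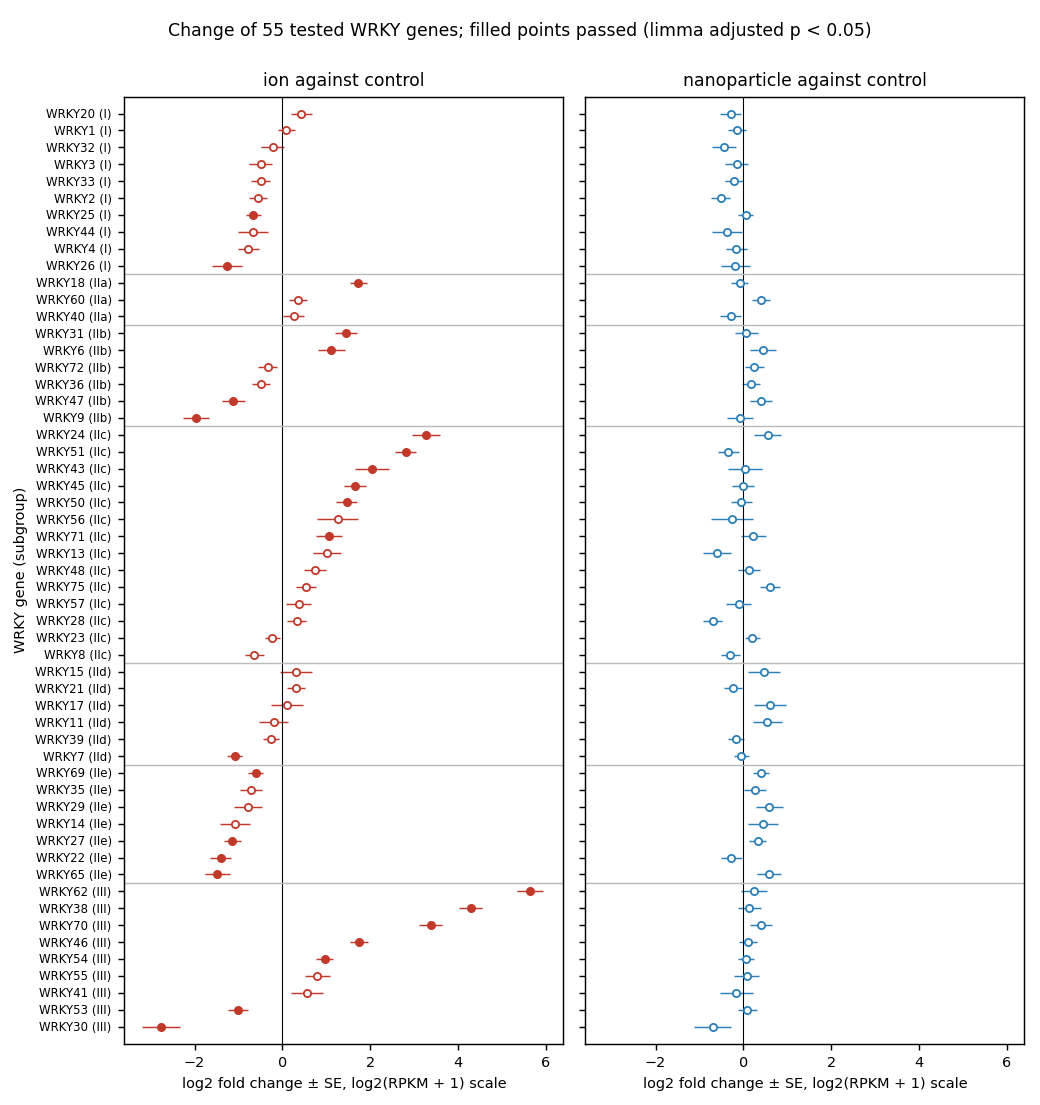
Log2 fold change ± SE on the log2(RPKM + 1) scale (x axis) for the 55 tested WRKY genes (y axis, by subgroup), in ion against control roots (left) and nanoparticle against control roots (right). Filled points passed limma's test: 14 above and 11 below 0 on the left, none on the right, where all points lie between -0.70 and 0.61.

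The members linked to salicylate, the defence hormone, had the largest median change of the role lists. These lists were chosen with earlier results of these data known, so the ranking is a description and not a test. Of the 8 on the salicylate list 7 rose and 1 fell (100%, against 22.6% of all genes called), with a median log2 fold change of 2.27. WRKY62 (AT5G01900), a group III factor that acts as a negative regulator of basal resistance, had 97.2 and 79.9 RPKM in ion roots, 1.41 and 0.872 RPKM in nanoparticle roots and 1.34 and 0.374 RPKM in control roots. Both ion libraries lay far above the other 4. These levels stand on 1169 and 1111 reads in ion roots, 19 and 12 reads in nanoparticle roots, and 19 and 5 reads in control roots. Reads pooled over a group, relative to its library totals, were 101-fold higher in ion than in control roots. On the log2(RPKM + 1) scale, which understates folds of low genes, the change was 5.63 ± 0.30 (SE, limma adjusted p = 0.000148). WRKY38 (AT5G22570), which acts with WRKY62, had 22.9 and 36.2 RPKM in ion roots, 0.713 and 0.628 RPKM in nanoparticle roots and 0.611 and 0.431 RPKM in control roots, again without overlap between ion and the rest. Its log2 fold change was 4.29 ± 0.26 (limma adjusted p = 0.00025).

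WRKY70 (AT3G56400), which promotes salicylate responses and restrains those to jasmonate, had 50.8 and 48.1 RPKM in ion roots, 4.44 and 6.64 RPKM in nanoparticle roots and 4.78 and 3.09 RPKM in control roots. The ion libraries lay close together and above all others, and the log2 fold change was 3.37 ± 0.26 (limma adjusted p = 0.000529). WRKY54 (AT2G40750), which shares functions with WRKY70, had 49.1 and 41.04 RPKM in ion roots, 24.9 and 22.2 RPKM in nanoparticle roots and 24.5 and 20.8 RPKM in control roots. Its ion libraries were also the highest, but the step was smaller, at 0.96 ± 0.19 (limma adjusted p = 0.0135). The call of WRKY54 ended without ion replicate 1 (limma adjusted p = 0.0878) and without ion replicate 2 (limma adjusted p = 0.0515).

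WRKY51 (AT5G64810) and WRKY50 (AT5G26170), the members with the lysine codon shown above, take part in the repression of jasmonate signalling by salicylate. WRKY51 had 135 and 132 RPKM in ion roots, 15.8 and 12.6 RPKM in nanoparticle roots and 22.5 and 14.7 RPKM in control roots. It was the most abundant WRKY transcript in both ion libraries, and it rose by 2.81 ± 0.24 (limma adjusted p = 0.000771). WRKY50 had 16.95 and 13.4 RPKM in ion roots, 3.75 and 5.71 RPKM in nanoparticle roots and 5.02 and 4.62 RPKM in control roots, which put both ion libraries above the rest. It rose by 1.47 ± 0.24 (limma adjusted p = 0.00722), and without ion replicate 1 the adjusted p was 0.0585.

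WRKY46 and WRKY53 of group III act together with WRKY70 in basal resistance, and they moved in opposite directions. WRKY46 (AT2G46400), also a regulator of aluminium-induced malate release, had 15.5 and 20.1 RPKM in ion roots, 4.80 and 5.22 RPKM in nanoparticle roots and 4.91 and 4.30 RPKM in control roots. Both ion libraries were the highest, and the log2 fold change was 1.74 ± 0.21 (limma adjusted p = 0.00223). WRKY53 (AT4G23810), a promoter of leaf senescence, had 3.43 and 4.40 RPKM in ion roots, 10.9 and 8.29 RPKM in nanoparticle roots and 8.39 and 9.36 RPKM in control roots. It was the only member of the salicylate list that fell, and it fell by 1.01 ± 0.22 (limma adjusted p = 0.0195), with both ion libraries below the other 4. The fall ended as a call without ion replicate 1 (limma adjusted p = 0.112) and without ion replicate 2 (limma adjusted p = 0.0623). WRKY53 overlaps the annotated locus AT4G23800 on the other strand, and whether the counting used strand is not given, so reads of the 2 cannot be told apart.

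**Figure D3:**
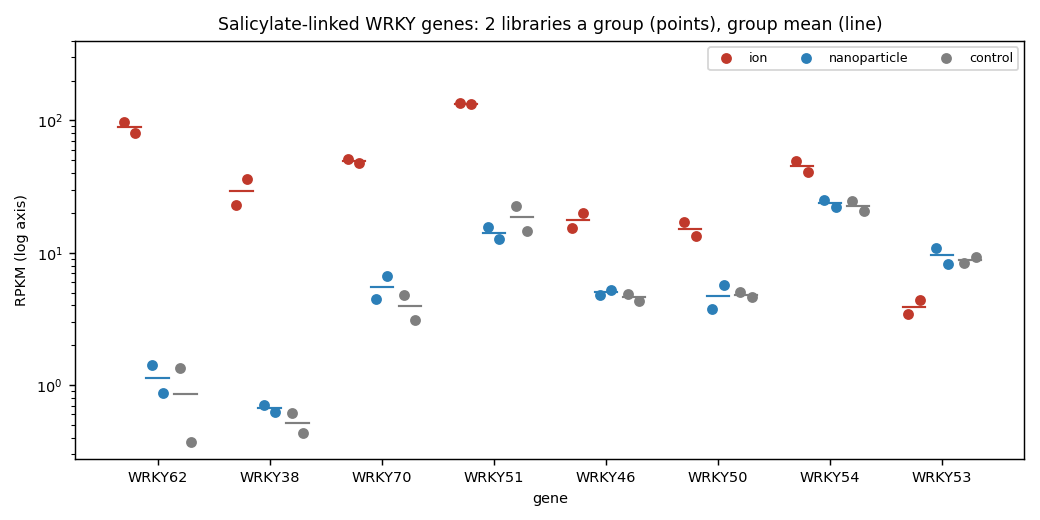
RPKM on a log axis (y) of the 8 salicylate-linked WRKY genes (x) in the 2 libraries of the ion, nanoparticle and control groups (points, left to right within each gene), with the group mean as a line. The ion points lie above the other 4 for 7 genes and below them for WRKY53; the widest gap is that of WRKY62, at 97.2 and 79.9 RPKM in ion roots.

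Among the members known for phosphate supply, 2 of the 3 tested rose (66.7%, against 22.6% of all genes called). WRKY45 (AT3G01970), an activator of the phosphate transporter gene PHT1;1, had 23.7 and 23.4 RPKM in ion roots, 5.23 and 8.61 RPKM in nanoparticle roots and 7.55 and 6.15 RPKM in control roots, and it rose by 1.65 ± 0.25 (limma adjusted p = 0.00544). WRKY6 (AT1G62300), a repressor of the phosphate exporter gene PHO1 that also acts in senescence, had 33.7 and 24.5 RPKM in ion roots, 19.2 and 16.3 RPKM in nanoparticle roots and 16.9 and 9.47 RPKM in control roots. Its ion libraries were the highest, and the control libraries lay well apart. It rose by 1.12 ± 0.30 (limma adjusted p = 0.0381), and the call ended without ion replicate 1 (limma adjusted p = 0.204), ion replicate 2 (0.0935), nanoparticle replicate 1 (0.0787), nanoparticle replicate 2 (0.0786) or control replicate 2 (0.0662), and also with no filter on low values (0.0636) or median-of-ratios scaling (0.0532). WRKY75 (AT5G13080), a regulator of phosphate starvation responses and of lateral roots and hairs, had 24.7 and 29.4 RPKM in ion roots, 24.2 and 32.5 RPKM in nanoparticle roots and 20.9 and 15.7 RPKM in control roots, with overlap between ion and nanoparticle roots. Its change was 0.55 ± 0.23 and did not pass (limma adjusted p = 0.133), though it passed without control replicate 1 (limma adjusted p = 0.0413). WRKY42, which also acts on PHO1 and PHT1;1, had 3 reads in 1 ion library and at most 2 in every other, and was not tested.

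Both members known for a part in aluminium responses passed (100%, against 22.6% of all genes called), on opposite sides. WRKY46 rose, as described above. WRKY47 (AT4G01720), a regulator of cell wall genes under aluminium, had 3.85 and 6.93 RPKM in ion roots, 16.3 and 17.4 RPKM in nanoparticle roots and 12.95 and 12.04 RPKM in control roots. The ion libraries were the lowest, and WRKY47 fell by 1.12 ± 0.26 (limma adjusted p = 0.0239). The call ended without ion replicate 1 (limma adjusted p = 0.0959), nanoparticle replicate 1 (0.0604) or nanoparticle replicate 2 (0.0606).

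On the root and hair patterning list 1 of 5 members rose (20%, near the 22.6% of all genes called). WRKY43 (AT2G46130) had 3.92 and 7.37 RPKM in ion roots, 0.604 and 0.591 RPKM in nanoparticle roots and 1.15 and 0.122 RPKM in control roots, which rests on 29 and 63 reads in ion roots, 5 and 5 in nanoparticle roots, and 10 and 1 in control roots. The rise was 2.05 ± 0.38 (limma adjusted p = 0.0119), and without ion replicate 2 the adjusted p was 0.0772. WRKY44 (AT2G37260), known as TTG2 and needed for trichomes and seed coats, had 3.67 and 1.51 RPKM in ion roots, 3.95 and 2.58 RPKM in nanoparticle roots and 4.29 and 4.59 RPKM in control roots, with overlapping groups. WRKY23 (AT2G47260), a regulator of auxin distribution in roots, had 12.3 and 13.2 RPKM in ion roots, 17.6 and 17.5 RPKM in nanoparticle roots and 15.1 and 15.2 RPKM in control roots. Its ion libraries were slightly below the rest, and the change of -0.23 ± 0.17 did not pass (limma adjusted p = 0.351). WRKY56 (AT1G64000) had 4.57 and 12.96 RPKM in ion roots, 2.53 and 1.68 RPKM in nanoparticle roots and 1.79 and 3.87 RPKM in control roots. The ion libraries were the highest but lay far apart, and the change of 1.26 ± 0.47 did not pass (limma adjusted p = 0.1). The fifth member is WRKY75, described above.

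Other rises were in subgroups IIc, IIb and IIa. WRKY24 (AT5G41570) of subgroup IIc had 17.1 and 19.9 RPKM in ion roots, 1.56 and 2.38 RPKM in nanoparticle roots and 1.66 and 0.526 RPKM in control roots, and its rise of 3.27 ± 0.31 (limma adjusted p = 0.00104) was the largest outside group III. WRKY31 (AT4G22070) of subgroup IIb had 2.19 and 2.88 RPKM in ion roots, 0.204 and 0.519 RPKM in nanoparticle roots and 0.427 and 0.164 RPKM in control roots. It rose by 1.45 ± 0.25 (limma adjusted p = 0.00906), and without ion replicate 2 the adjusted p was 0.0529. WRKY71 (AT1G29860), known for shoot branching, had 5.29 and 6.29 RPKM in ion roots, 2.73 and 2.89 RPKM in nanoparticle roots and 1.48 and 3.27 RPKM in control roots. Its ion libraries were the highest, and the rise of 1.06 ± 0.29 (limma adjusted p = 0.0426) ended as a call without any 1 of 5 libraries, at adjusted p of 0.129 and 0.182 for ion replicates 1 and 2, 0.0897 and 0.0899 for nanoparticle replicates 1 and 2, and 0.0634 for control replicate 1. WRKY71 also did not pass with a pseudocount of 0.1 (limma adjusted p = 0.0553), no filter (0.0713), a filter of 5 RPKM (0.0513), TPM (0.0671) or voom on recovered reads (0.0505).

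Subgroup IIa holds 3 related repressors that bind W boxes and associate with one another, and they did not move as a set. WRKY18 (AT4G31800) had 49.3 and 47.1 RPKM in ion roots, 13.6 and 12.4 RPKM in nanoparticle roots and 11.9 and 15.96 RPKM in control roots. Both ion libraries stood clear of the rest, and it rose by 1.73 ± 0.20 (limma adjusted p = 0.00191). WRKY40 (AT1G80840) had 19.6 and 15.97 RPKM in ion roots, 12.9 and 10.9 RPKM in nanoparticle roots and 12.01 and 17.9 RPKM in control roots, with control replicate 2 inside the ion range. The change of WRKY40 was 0.26 ± 0.24 and did not pass (limma adjusted p = 0.471), and it was -0.011 without control replicate 1. WRKY60 (AT2G25000) had 5.17 and 4.18 RPKM in ion roots, 4.56 and 5.16 RPKM in nanoparticle roots and 3.37 and 3.44 RPKM in control roots, with overlapping groups and a change of 0.36 ± 0.20 (limma adjusted p = 0.238).

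Subgroup IIe lay low in ion roots as a whole. All 7 members had a negative log2 fold change in ion against control roots, from -1.48 to -0.61, and 4 passed (57.1%, against 10.3% of all genes called lower). WRKY65 (AT1G29280), the most abundant WRKY transcript of control roots, had 67.2 and 83.3 RPKM in ion roots, 311 and 317 RPKM in nanoparticle roots and 268 and 165 RPKM in control roots. The ion libraries were the lowest, and control replicate 2 lay well below control replicate 1. WRKY65 fell by 1.48 ± 0.28 (limma adjusted p = 0.0117), and the call ended without ion replicate 1 (limma adjusted p = 0.0901) or ion replicate 2 (0.0583).

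WRKY22 (AT4G01250), which acts downstream of the kinase cascade that flagellin sets off, had 8.72 and 6.73 RPKM in ion roots, 15.7 and 20.7 RPKM in nanoparticle roots and 25.4 and 18.9 RPKM in control roots. All ion values were below all others, and it fell by 1.40 ± 0.24 (limma adjusted p = 0.00845; 0.0679 without ion replicate 2). WRKY29 (AT4G23550) of the same cascade had 4.95 and 7.89 RPKM in ion roots, 14.6 and 21.9 RPKM in nanoparticle roots and 14.2 and 9.39 RPKM in control roots. It too was lowest in ion roots, but the change of -0.79 ± 0.31 did not pass (limma adjusted p = 0.114). WRKY27 (AT5G52830), which shapes the course of bacterial wilt, had 6.62 and 8.82 RPKM in ion roots, 21.5 and 24.1 RPKM in nanoparticle roots and 18.3 and 17.7 RPKM in control roots and fell by 1.14 ± 0.20 (limma adjusted p = 0.00896; 0.0582 without ion replicate 1).

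WRKY69 (AT3G58710) had 35.8 and 37.03 RPKM in ion roots, 71.8 and 77.1 RPKM in nanoparticle roots and 61.2 and 51.5 RPKM in control roots and fell by 0.61 ± 0.18 (limma adjusted p = 0.0487). Its groups did not overlap, yet the call ended without ion replicate 1 (limma adjusted p = 0.179), ion replicate 2 (0.152), nanoparticle replicate 1 (0.14) or nanoparticle replicate 2 (0.14). WRKY69 overlaps 2 annotated loci on the other strand. WRKY14 (AT1G30650) had 6.70 and 4.23 RPKM in ion roots, 15.7 and 19.3 RPKM in nanoparticle roots and 17.2 and 8.95 RPKM in control roots, and its change of -1.09 ± 0.34 did not pass (limma adjusted p = 0.0602), though it passed without control replicate 2 (limma adjusted p = 0.0138) and with TPM (0.0354). WRKY35 (AT2G34830) had 8.08 and 6.26 RPKM in ion roots, 15.1 and 14.9 RPKM in nanoparticle roots and 15.5 and 9.73 RPKM in control roots, with a change of -0.71 ± 0.25 that did not pass (limma adjusted p = 0.0873) and that passed without control replicate 2 (limma adjusted p = 0.0178).

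**Figure D4:**
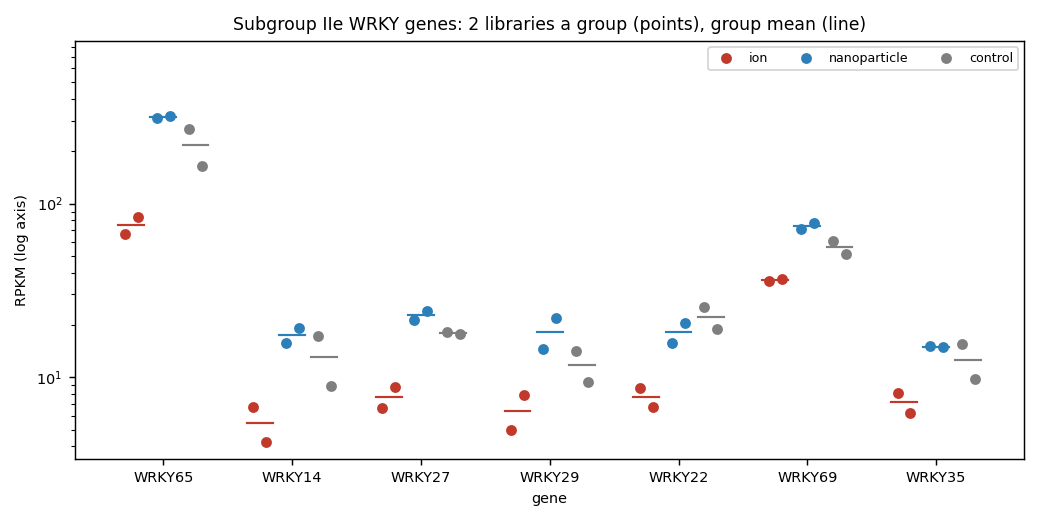
RPKM on a log axis (y) of the 7 subgroup IIe WRKY genes (x) in the 2 libraries of the ion, nanoparticle and control groups (points, left to right within each gene), with the group mean as a line. For all 7 genes both ion points lie below the other 4.

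The steepest fall was that of WRKY30 (AT5G24110), a group III gene that responds to oxidative stress. It had 1.70 and 0.381 RPKM in ion roots, 10.5 and 4.68 RPKM in nanoparticle roots and 11.3 and 13.1 RPKM in control roots, from 27 and 7 reads in ion roots, 187 and 85 in nanoparticle roots, and 211 and 231 in control roots. The ion libraries were the lowest, the control libraries the highest, and the nanoparticle libraries lay between. Pooled reads relative to library totals were 12.3-fold lower in ion than in control roots, and the log2 fold change was -2.77 ± 0.43 (limma adjusted p = 0.00575).

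WRKY9 (AT1G68150) of subgroup IIb, a regulator of suberin genes, had 10.8 and 5.20 RPKM in ion roots, 30.2 and 30.9 RPKM in nanoparticle roots and 33.05 and 31.8 RPKM in control roots. Its nanoparticle and control libraries lay within a narrow band above the ion libraries, and it fell by 1.97 ± 0.30 (limma adjusted p = 0.00548). WRKY9 overlaps AT1G68160 on the other strand. WRKY7 (AT4G24240), a calmodulin-binding member of subgroup IId, had 26.4 and 23.6 RPKM in ion roots, 50.1 and 55.1 RPKM in nanoparticle roots and 52.3 and 56.3 RPKM in control roots and fell by 1.09 ± 0.17 (limma adjusted p = 0.00615; 0.0518 without ion replicate 2).

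The heat and necrotroph list of group I holds WRKY25, WRKY26 and WRKY33, which take part in heat tolerance, and WRKY33 also drives camalexin synthesis against necrotrophic fungi. WRKY25 (AT2G30250) had 14.7 and 17.8 RPKM in ion roots, 26.9 and 27.4 RPKM in nanoparticle roots and 24.9 and 27.6 RPKM in control roots and fell by 0.66 ± 0.18 (limma adjusted p = 0.0398). The call of WRKY25 ended without any 1 library other than control replicate 1, with adjusted p between 0.0549 and 0.18. WRKY26 (AT5G07100) had 13.9 and 13.9 RPKM in ion roots, 26.4 and 35.004 RPKM in nanoparticle roots and 24.3 and 49.4 RPKM in control roots, with control replicate 2 well above control replicate 1. WRKY26 fell by 1.26 ± 0.33 (limma adjusted p = 0.0366), and the call ended without ion replicate 1 (limma adjusted p = 0.162), ion replicate 2 (0.157), nanoparticle replicate 1 (0.0671) or nanoparticle replicate 2 (0.0671), and with no filter (0.063). A fit of the ion and control libraries alone ended the calls of WRKY6, WRKY25, WRKY26, WRKY47, WRKY69 and WRKY71, with limma adjusted p from 0.0615 to 0.138. WRKY33 (AT2G38470) had 58.6 and 45.4 RPKM in ion roots, 65.2 and 61.5 RPKM in nanoparticle roots and 65.7 and 81.7 RPKM in control roots. Both ion libraries were the lowest, but the change of -0.50 ± 0.21 did not pass (limma adjusted p = 0.131; 0.0364 without control replicate 1). WRKY33 overlaps 2 annotated loci on the other strand.

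The 3 calmodulin-binding members WRKY11, WRKY15 and WRKY17 of subgroup IId, among the most abundant of the family, turned on control replicate 2. WRKY17 had 84.4 and 72.3 RPKM in ion roots, 113 and 111 RPKM in nanoparticle roots and 109.6 and 48.3 RPKM in control roots, WRKY11 had 51.1 and 54.3 RPKM in ion roots, 87.8 and 89.7 RPKM in nanoparticle roots and 87.4 and 41.7 RPKM in control roots, and WRKY15 had 65.95 and 62.2 RPKM in ion roots, 69.4 and 74.03 RPKM in nanoparticle roots and 78.7 and 33.3 RPKM in control roots. In each of them control replicate 2 was the lowest of all 6 libraries and control replicate 1 lay close to the nanoparticle libraries. They were the 3 tested members whose control libraries stood at least 1 apart on the log2 scale (5.45%, against 9.05% of all genes), and none passed in ion against control roots. Without control replicate 1, WRKY15 (limma adjusted p = 0.00452) and WRKY17 (0.0178) were called higher in ion roots, and without control replicate 2, WRKY11 (0.0164) was called lower.

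The other 17 tested members did not pass in ion against control roots. Their log2 fold changes ran from -0.78 in WRKY4 (limma adjusted p = 0.0598) to 1.01 in WRKY13 (0.0657). They include WRKY1, WRKY2, WRKY3, WRKY20 and WRKY32 of group I, WRKY36 and WRKY72 of subgroup IIb, WRKY8, WRKY28, WRKY48 and WRKY57 of subgroup IIc, WRKY21 and WRKY39 of subgroup IId, and WRKY41 and WRKY55 of group III. Leaving out a control library gave a call in 9 of them. Without control replicate 1, WRKY2, WRKY3, WRKY4 and WRKY32 were called lower (limma adjusted p from 0.00315 to 0.0463), and without control replicate 2, WRKY13, WRKY20 and WRKY48 were called higher (0.0208 to 0.0449) and WRKY36 and WRKY72 lower (0.0315 and 0.0482). WRKY4 also passed with all libraries under median-of-ratios scaling (limma adjusted p = 0.0434) and voom on recovered reads (0.0472).

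At the low end, WRKY34, known from pollen, had 1 read in each ion library and 0 in the other 4, where 0 allows up to 3 reads. WRKY49 had 0 and 4 reads in ion roots, 3 and 0 in nanoparticle roots, and 3 and 4 in control roots. WRKY10, known from the endosperm of seeds, and WRKY12, known from stem pith, had no row. Of the 55 tested members 48 reached 5 RPKM in at least 2 libraries.

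In ion against nanoparticle roots 14 of 55 members rose and 13 fell. The 27 are 49.1% of the members, against 25.3% of all genes tested (13.3% higher and 11.9% lower), and 24 of them had a log2 fold change of at least 1 either way (17.7% of all genes). This comparison uses the same ion libraries as the one above, so the 2 are not independent. Against both other groups 12 members rose in ion roots (9.35% of all genes did) and 10 fell (8.71% of all genes). The 8 salicylate-linked members kept their sides, with 7 rises and 1 fall. For WRKY62 the log2 fold change was 5.39 ± 0.30 (limma adjusted p = 0.000149), for WRKY38 it was 4.16 ± 0.26 (0.000252), for WRKY51 3.16 ± 0.24 (0.00047) and for WRKY70 2.97 ± 0.26 (0.000676).

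All 7 members of subgroup IIe fell in ion against nanoparticle roots (100%, against 11.9% of all genes called lower), with a median log2 fold change of -1.38. WRKY65 fell by 2.06 ± 0.28 (limma adjusted p = 0.00323), with pooled reads relative to library totals 4.14-fold lower, and was the single fall that held without each library in turn. WRKY27 fell by 1.46 ± 0.20 (limma adjusted p = 0.0033), and without nanoparticle replicate 2 the adjusted p was 0.0503. WRKY14, WRKY22, WRKY29, WRKY35 and WRKY69 fell by 0.98 to 1.54, and each lost its call without any 1 of the ion or nanoparticle libraries, with adjusted p from 0.0505 to 0.189. WRKY35 also lost it with no filter (0.055). 

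The other members called in both comparisons moved in the same directions in each. WRKY24 rose by 2.72 ± 0.31 (limma adjusted p = 0.00172), WRKY43 by 2.01 ± 0.38 (0.0117), WRKY18 by 1.81 ± 0.20 (0.00143), WRKY45 by 1.67 ± 0.25 (0.00479), WRKY46 by 1.63 ± 0.21 (0.00256), WRKY50 by 1.51 ± 0.24 (0.00592), WRKY31 by 1.38 ± 0.25 (0.00987) and WRKY54 by 0.90 ± 0.19 (0.0157). The log2 fold change was -2.07 ± 0.43 for WRKY30 (limma adjusted p = 0.0151), -1.88 ± 0.30 for WRKY9 (0.00591), -1.52 ± 0.26 for WRKY47 (0.00773), -1.10 ± 0.22 for WRKY53 (0.0134), -1.04 ± 0.17 for WRKY7 (0.00659) and -0.71 ± 0.18 for WRKY25 (0.0294). Without 1 or more of the ion or nanoparticle libraries the calls of WRKY31, WRKY43, WRKY50 and WRKY54 were lost (limma adjusted p from 0.0507 to 0.167), as were those of the 6 that fell (0.0531 to 0.226).

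A further pair of IIc members rose against nanoparticle roots and did not pass against control roots. WRKY13 (AT4G39410), known for stem development, had 5.83 and 4.68 RPKM in ion roots, 0.744 and 1.38 RPKM in nanoparticle roots and 1.35 and 3.08 RPKM in control roots. It was highest in ion roots and rose by 1.61 ± 0.32 (limma adjusted p = 0.0139) against nanoparticle roots. WRKY28 (AT4G18170), an activator of the salicylate synthesis gene ICS1, had 8.69 and 10.7 RPKM in ion roots, 4.90 and 3.66 RPKM in nanoparticle roots and 8.002 and 7.0001 RPKM in control roots, with the nanoparticle libraries lowest. It rose by 1.02 ± 0.22 (limma adjusted p = 0.0171) against nanoparticle roots and changed by 0.33 ± 0.22 against control roots (limma adjusted p = 0.312). Without any 1 of the ion or nanoparticle libraries, the adjusted p lay between 0.0547 and 0.0943 for WRKY13 and between 0.0584 and 0.171 for WRKY28. WRKY6, WRKY26 and WRKY71 passed against control roots and did not pass against nanoparticle roots (limma adjusted p = 0.144, 0.0551 and 0.0798), though all 3 passed there in a fit of only the ion and nanoparticle libraries (0.0324, 0.00472 and 0.0155).

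In nanoparticle against control roots none of the 55 members passed limma's test, and 0.0% of the 19648 genes passed it. At an unadjusted p under 0.05 there were 3 members and 1307 genes, and voom on recovered reads also called none. The 3 members were WRKY28, with a log2 fold change of -0.70 ± 0.22, WRKY2 with -0.52 ± 0.21, and WRKY75 with 0.60 ± 0.23. Each had a limma adjusted p of 0.595. WRKY2 (AT5G56270), which acts in seed germination and pollen, had 4.32 and 4.79 RPKM in ion roots, 5.15 and 4.28 RPKM in nanoparticle roots and 6.29 and 8.12 RPKM in control roots. Over the 55 members the log2 fold changes ran from -0.70 to 0.61 with a median of 0.05, and over all genes tested the median was -0.03. For WRKY62 the change was 0.24 ± 0.30, for WRKY38 0.14 ± 0.26, for WRKY70 0.41 ± 0.26 and for WRKY51 -0.34 ± 0.24.

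The count of 0 did not hold with control replicate 2 as the only control library. Without control replicate 1, which leaves control replicate 2 alone, 5 members passed in nanoparticle against control roots (9.09%, against 17.4% of all genes in that fit). WRKY11, WRKY15, WRKY17 and WRKY65 were higher (limma adjusted p = 0.00881, 0.009, 0.00901 and 0.0243) and WRKY32 was lower (0.0249). Without control replicate 2 none passed. Control replicate 2 is also the library with a summed root-marker level of 182 RPKM, against 377 RPKM in control replicate 1, and the part of that difference in these calls was not tested.

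The promoters of the members were searched for the W box. Stretches of 2 of them are shown, that of WRKY62 for the member that rose most and that of WRKY30 for the member that fell most, read from the TAIR10.1 genome on the strand of the gene, 5′ to 3′. Capitals mark TTGAC, or its reverse complement GTCAA.
WRKY62, chr5:352172-352336, minus strand: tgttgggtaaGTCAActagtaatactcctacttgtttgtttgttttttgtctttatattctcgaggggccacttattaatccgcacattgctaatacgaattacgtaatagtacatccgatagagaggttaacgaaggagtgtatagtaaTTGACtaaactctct
WRKY30, chr5:8154756-8154844, minus strand: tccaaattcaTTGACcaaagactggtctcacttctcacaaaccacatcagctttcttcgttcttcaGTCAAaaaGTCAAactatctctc

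The window of WRKY62 held 2 matches and that of WRKY30 held 3. In windows from 250 bases before to 50 bases after the annotated start, TTGAC on either strand occurred in 36 of 60 members (60%), against 50.5% of 27444 protein-coding promoters. A second match was present in 30% of members, against 17.7% of all promoters. The motif was present in 7 of the 14 members that rose in ion against control roots (50%), in 8 of the 11 that fell (72.7%) and in 18 of the 30 that did not pass (60%). Among the promoters of all genes it was present in 53.8% of those that rose and 55.8% of those that fell. The longer forms TTGACC or TTGACT, which contain TTGAC, occurred in 21 members (35%), against 32.4% of all promoters. GNATATNC, the element bound by the phosphate starvation regulator PHR1, occurred in 2 members (3.33%, against 6.25% of all promoters), which were WRKY55 and WRKY71 and none of the phosphate list.

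Proteins that act with WRKY factors were read from 4 lists, which were chosen with earlier results of these data known. In the kinase cascade that phosphorylates WRKY factors, 1 of 11 genes rose and 1 fell in ion against control roots (18.2%, against 22.6% of all genes; median log2 fold change 0.41). MKK9, a kinase kinase, had 27.4 and 27.3 RPKM in ion roots, 17.7 and 17.4 RPKM in nanoparticle roots and 16.7 and 11.6 RPKM in control roots and rose by 0.92 ± 0.21 (limma adjusted p = 0.0226). MPK3, the kinase that phosphorylates WRKY33, had 54.2 and 73.05 RPKM in ion roots, 125 and 128 RPKM in nanoparticle roots and 106 and 155 RPKM in control roots. Both ion libraries were the lowest, and MPK3 fell by 1.02 ± 0.25 (limma adjusted p = 0.0303). Both calls ended without any 1 of the ion or nanoparticle libraries, with adjusted p from 0.0671 to 0.113 for MKK9 and from 0.0719 to 0.171 for MPK3. A fit of the ion and control libraries alone also ended both (0.0669 and 0.0786), as it did the calls of VQ9, NPR1 and GL2 named below (0.0549, 0.136 and 0.088).

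VQ proteins are small partners that bind the WRKY domain, and 5 of 24 tested genes rose and 3 fell (33.3%, against 22.6% of all genes; median 0.24; 28 genes on the list, of which RefSeq describes AT5G08780 as a winged-helix protein). The 3 largest rises were those of AT4G15120, VQ29 and SIB1. AT4G15120 had 30.4 and 34.96 RPKM in ion roots, 10.13 and 10.4 RPKM in nanoparticle roots and 8.33 and 2.01 RPKM in control roots and rose by 2.66 ± 0.48 (limma adjusted p = 0.00991; 0.0688 and 0.0806 without ion replicate 1 and 2). VQ29 had 3.56 and 13.1 RPKM in ion roots, 0.118 and 0 RPKM in nanoparticle roots and 0 and 1.19 RPKM in control roots and rose by 2.44 ± 0.58 (limma adjusted p = 0.0257; 0.11 without ion replicate 2 and 0.0567 without control replicate 1). With a pseudocount of 0.1 the change of VQ29 was 4.28 and with voom on recovered reads 4.79, and neither passed (limma adjusted p = 0.0567 and 0.0524). SIB1, a partner of WRKY33, had 19.5 and 10.5 RPKM in ion roots, 3.46 and 2.52 RPKM in nanoparticle roots and 3.38 and 1.61 RPKM in control roots and rose by 2.18 ± 0.37 (limma adjusted p = 0.00799; 0.0552 without ion replicate 1).

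The 3 VQ genes that fell were AT3G58000, AT5G46780 and VQ9. AT3G58000 was at 0 in both ion libraries, against 8.78 and 9.001 RPKM in nanoparticle roots and 5.23 and 2.35 RPKM in control roots (limma adjusted p = 0.00428). With 0 taken as 3 reads over both ion libraries together, this is at least 17.9-fold lower than control. AT5G46780 had 92.5 and 100.4 RPKM in ion roots, 218 and 226 RPKM in nanoparticle roots and 204 and 219 RPKM in control roots and fell by 1.13 ± 0.19 (limma adjusted p = 0.00779; 0.0587 without ion replicate 1). VQ9 had 10.7 and 8.68 RPKM in ion roots, 22.4 and 25.5 RPKM in nanoparticle roots and 20.4 and 17.9 RPKM in control roots and fell by 0.92 ± 0.19 (limma adjusted p = 0.0166), and its call ended without any 1 of the ion or nanoparticle libraries (adjusted p from 0.0515 to 0.0993).

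Among 16 co-regulators of salicylate responses 6 rose and 1 fell (43.75%, against 22.6% of all genes; median 0.24). NIMIN1, which binds the salicylate co-activator NPR1, had 37.5 and 29.7 RPKM in ion roots, 0 and 0.262 RPKM in nanoparticle roots and 0.255 and 0 RPKM in control roots, from 250 and 229 reads in ion roots and at most 2 in any other library. It rose by 4.94 ± 0.25 (limma adjusted p = 0.000116). GRX480, a glutaredoxin that binds TGA factors, had 19.1 and 29.2 RPKM in ion roots, 0.242 and 0.355 RPKM in nanoparticle roots and 0.460 and 0.609 RPKM in control roots and rose by 4.01 ± 0.26 (limma adjusted p = 0.000297). NIMIN2 had 21.7 and 27.5 RPKM in ion roots, 0.95003 and 1.46 RPKM in nanoparticle roots and 1.16 and 0.274 RPKM in control roots and rose by 3.94 ± 0.31 (limma adjusted p = 0.000591). In all 3 the ion libraries stood far above the others. NPR1 itself had 22.1 and 17.9 RPKM in ion roots, 28.5 and 28.5 RPKM in nanoparticle roots and 30.1 and 32.3 RPKM in control roots and fell by 0.62 ± 0.18 (limma adjusted p = 0.0485), a call that ended without any 1 library other than control replicate 1 (adjusted p from 0.0628 to 0.204) and with no filter (0.0516).

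Of 16 tested genes that WRKY factors are known to bind or regulate, 7 rose and 2 fell (56.25%, against 22.6% of all genes; median 0.54). ALMT1, the malate channel gene that WRKY46 represses, had 246 and 231 RPKM in ion roots, 1.34 and 0.906 RPKM in nanoparticle roots and 0.926 and 1.12 RPKM in control roots and rose by 6.89 ± 0.20 (limma adjusted p = 2.86e-05). TAT3, a tyrosine aminotransferase of jasmonate responses, had 59.6 and 189 RPKM in ion roots, 0.441 and 0.259 RPKM in nanoparticle roots and 1.98 and 0.445 RPKM in control roots. Its ion libraries differed from each other but stood far above the rest, and it rose by 5.69 ± 0.56 (limma adjusted p = 0.0012). ALD1, an enzyme of pipecolate synthesis, had 15.9 and 12.5 RPKM in ion roots, 0.708 and 0.462 RPKM in nanoparticle roots and 0.540 and 0.476 RPKM in control roots and rose by 3.32 ± 0.22 (limma adjusted p = 0.000346). ORA59, an activator of jasmonate and ethylene defence genes, had 0.610 and 0.603 RPKM in ion roots, 8.87 and 7.70 RPKM in nanoparticle roots and 5.71 and 3.06 RPKM in control roots and fell by 1.70 ± 0.28 (limma adjusted p = 0.00722; 0.0515 and 0.0549 without ion replicate 1 and 2). GL2, a regulator of root hair patterning, had 4.69 and 3.44 RPKM in ion roots, 7.77 and 7.24 RPKM in nanoparticle roots and 9.88 and 7.14 RPKM in control roots and fell by 0.90 ± 0.23 (limma adjusted p = 0.0348), a call that ended without any 1 library other than control replicate 2 (adjusted p from 0.0614 to 0.166) and with no filter (0.061). PR1, the usual marker of salicylate defence in leaves, was at or near 0 in all 6 libraries and was not tested, and SAG12 and ABI4 had no row.

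In ion against nanoparticle roots the same lists had no rise and 1 fall in the kinase cascade, 3 rises and 4 falls among VQ genes, 6 rises and 2 falls among salicylate co-regulators, and 7 rises and 3 falls among bound or regulated genes. These are 9.09%, 29.2%, 50% and 62.5% of the lists, against 25.3% of all genes. VQ18 (log2 fold change -1.95, limma adjusted p = 0.0359), TGA6 (-0.74, 0.0311) and TGA1 (-0.73, 0.0491) fell here and did not pass against control roots. So did ACS2 (-0.91, 0.0277) and PHT1;1 (-2.26, 0.0221), the phosphate transporter gene named above with WRKY45. Each of these calls ended without any 1 of the ion or nanoparticle libraries. VQ18 and TGA1 also did not pass with no filter, and TGA1 did not with a pseudocount of 0.1 or TPM. In nanoparticle against control roots no gene of the 4 lists passed limma's test, and 0, 4, 0 and 1 genes had an unadjusted p under 0.05. The widest value there was a log2 fold change of 1.77, in the VQ list.

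**Figure D5:**
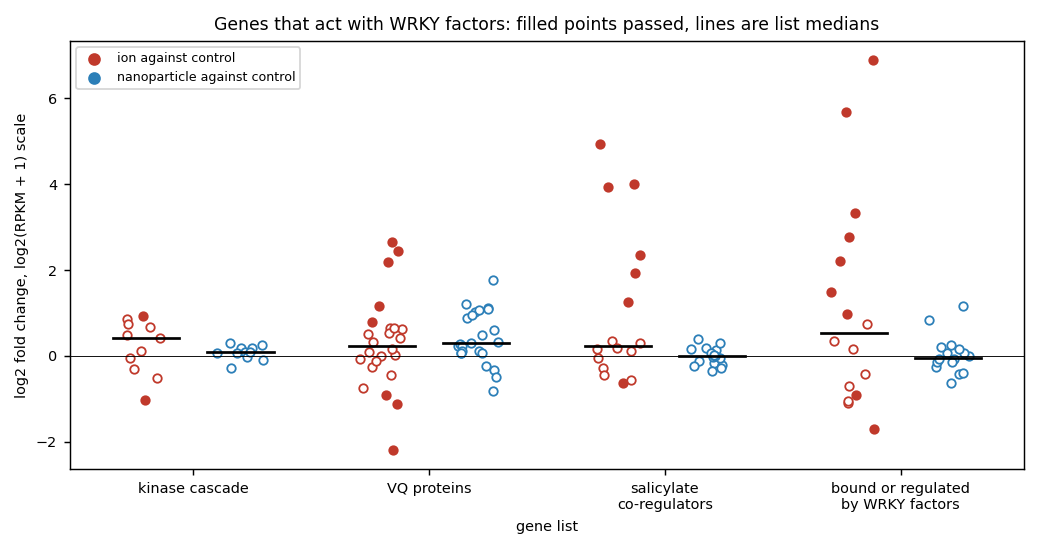
Log2 fold change on the log2(RPKM + 1) scale (y axis) of the genes of 4 partner lists (x axis), in ion against control roots (left cloud of each pair) and nanoparticle against control roots (right cloud). Filled points passed limma's test and horizontal lines are list medians; the highest point is ALMT1 at 6.89, and no nanoparticle point is filled.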

How the data were processed

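RPKM per gene and library is what the authors deposited, without counts or coordinates. Per the submitters' processing notes TopHat2 2.0.12, HTSeq 0.6.0 and the TAIR10 build were used; settings, annotation and use of strand are not stated there. Members were matched by locus identifier, and libraries were grouped by title. Log2(RPKM + 1) values entered limma (version 3.58.1, under R 4.3.3) with a mean-variance trend and 3 groups of 2 libraries in 1 fit (3 residual and 3.81 prior degrees of freedom), on the 19648 genes (80.4%) with at least 1 RPKM in at least 2 libraries. Tests were two-sided with Benjamini-Hochberg adjustment over those genes. Whole reads were recovered for 24411 genes (99.9%, within 1e-06 of a read), and voom on them called 2503 genes higher and 2139 lower in ion against control roots. Floors of 3 reads cover counting error only. Named are all members that passed, all members with a listed role, and the 3 largest rises and falls of each partner list that passed in ion against control roots. Partner genes that fell only in ion against nanoparticle roots are named as well. The members, roles and lists were chosen with earlier results of these data known. The alternatives were another pseudocount (0.1), 2 other filters, 2 other scalings, only the 2 groups compared, a replicate block, voom, and leaving out each library. The fit was checked on simulated data with the same spread for every gene and library, set below the mean spread of the groups. That check does not cover the unequal spread of the groups or the distance of control replicate 2.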

Additional observations from a re-analysis of the deposited data

How the results depend on the processing

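For members given with a value and partner genes that passed, 142 results were recomputed under each alternative that tests them: direction and side of the threshold were kept in 1717 cases, a call was lost in 216, a call was gained in 35 and the direction reversed in 9, none of them called with all libraries. Over all 55 tested members, 16 in ion against control, 5 in nanoparticle against control and 13 in ion against nanoparticle roots did not pass in the reported fit and passed under at least 1 alternative. The reversals in ion against control roots were those of WRKY11 (log2 fold change 0.33 without control replicate 1 and -0.72 without control replicate 2), WRKY15 (0.92 and -0.29), WRKY17 (0.68 and -0.48, with -0.011 without ion replicate 1 and -0.012 with TPM), WRKY32 (-0.60 and 0.15) and WRKY40 (-0.011 and 0.52). In nanoparticle against control roots they were WRKY15 (1.08 and -0.13) and WRKY62 (0.63 and -0.14). Of the members, 8 of 14 rises and 2 of 11 falls in ion against control roots, and 8 of 14 rises and 1 of 13 falls in ion against nanoparticle roots, were kept in every alternative in which they were tested. Leaving out 1 library in turn gave 13 to 32 called members in ion against control roots (25 with all libraries), beside 9.49% to 39.4% of all genes, 0 to 5 in nanoparticle against control roots (0) and 11 to 40 in ion against nanoparticle roots (27). In ion against control roots the count was 14 without ion replicate 1 and 13 without ion replicate 2. In ion against nanoparticle roots it was 17 and 15 without those libraries, and 11 and 12 without nanoparticle replicate 1 and 2. A fit of only the 2 groups compared, and each fit without 1 control library, called 40 there (72.7% of members, against 8055 to 8101 of all 19648 genes in those fits). With 1 library left in a group, that library was assumed to vary like the other groups, and such fits have fewer samples. Other filters, scalings, pseudocount and voom left 22 to 25 members called in ion against control roots and 24 to 30 in ion against nanoparticle roots.

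Leave-out counts for the partner lists were, in ion against control, nanoparticle against control and ion against nanoparticle roots in that order, 0 to 6, 0 to 0 and 0 to 2 for the kinase cascade, 3 to 14, 0 to 10 and 1 to 13 for VQ proteins, 5 to 8, 0 to 1 and 5 to 10 for salicylate co-regulators, and 6 to 10, 0 to 2 and 7 to 11 for bound or regulated genes. With only the 2 groups compared, the kinase cascade had 0 calls in ion against control and 2 in ion against nanoparticle roots. VQ proteins had 13 calls in ion against nanoparticle roots, where 8055 of all 19648 genes were called with only those 2 groups. More of all genes were thus called there than in the reported fit, and fewer were called in ion against control roots. TTGACC or TTGACT in place of TTGAC gave 21 promoters. In ion against control and ion against nanoparticle roots, the share of all genes called also fell without any 1 ion or nanoparticle library. That share rose without either control library. All leave-out calls of the partner lists in nanoparticle against control roots came from the fit without control replicate 1. In that fit control replicate 2 stood alone, and calls over all genes appeared as well. The causes of these shifts were not tested. Over all genes, ion against nanoparticle roots had 2622 higher and 2347 lower calls and a median of 0.13, against 1948 higher, 2769 lower and 0.0044 with median-of-ratios scaling.

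Same-numbered libraries did not deviate together: over 19648 genes the correlation of deviations was 0.0755 for ion with nanoparticle, -0.164 for ion with control and -0.0541 for nanoparticle with control. With the replicate number as a block, 23 members were called in ion against control roots (WRKY25 and WRKY69 did not pass), 0 in nanoparticle against control roots and 28 in ion against nanoparticle roots (WRKY26 passed as well). All genes called with that block were 19.0%, 0.0% and 20.6%, in the same order. Of the partner genes, the block ended the falls of NPR1 in ion against control roots (limma adjusted p = 0.0839) and of TGA1 and TGA6 in ion against nanoparticle roots (0.0655 and 0.0538), which left salicylate co-regulators with 6 rises and no fall in each, and it ended the rise of VQ33 in ion against nanoparticle roots (0.0509). Genes below about 3 reads a library cannot be compared at this depth.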
